A study of Mus musculus with 8 samples.

Results

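Autosomal regions that carried an H3K27me3 peak only after deletion of Smchd1 were collected from the peak lists of 4 libraries. Peaks of chromosomes 1 to 19 that overlapped or touched were merged over the lists, and a merged region was kept when it held peaks of both del/del libraries and of neither del/fl library. This gave 841 regions of 46591 autosomal merged regions, or 1.81%. They are called gained regions below, and the mirror set, with a peak in both del/fl and in neither del/del library, lost regions. The members were chosen by peak presence in the same 4 lists, so their 0 peaks in del/fl and all their del/del peak values are the choice itself and not a finding. No test was made on them.

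H3K27me3 is histone H3 trimethylated at lysine 27. Polycomb repressive complex 2 deposits it, and it marks silent developmental genes over broad domains, mostly at CpG-rich start sites, as well as the inactive X chromosome. Smchd1 is a chromatin protein of the SMC family, required for silencing on the inactive X and at some imprinted and clustered autosomal genes. The cells were female neural stem cells, the self-renewing precursors of neurons and glia, grown as lines from E14.5 embryos of a mixed C57BL/6, 129 and Castaneus background. All of them carried 1 deleted copy of Smchd1, a maternal 129 X with the deltaA allele of Xist, and a paternal Castaneus X. The del/del cells had received a Cre retrovirus with a puromycin cassette, were selected with puromycin from 24 hours after transduction and were harvested 7 days after it. The del/fl cells were the untransduced part of the same established lines and kept a conditional second copy. Deletion, viral transduction and drug selection therefore cannot be told apart. The sample annotation lists 24 hours and day 7 for del/fl as well, so it does not set the groups apart by these times. Each group had 2 ChIP libraries, each called against its own whole-cell extract. Separate embryos are not stated for them, so the spread between them may be technical. In such bulk libraries a mark in more cells and more mark per cell cannot be told apart.

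The 4 lists held 17102 and 26327 autosomal peaks in del/del 1 and 2, and 17564 and 26637 in del/fl 1 and 2. They rested on 14064030, 12819919, 13288499 and 11793402 ChIP tags in the same order. The lowest pileup of an autosomal peak was 6 in both libraries numbered 1 and 5 in both numbered 2, so the number-2 lists reach weaker peaks. Of 15 neural stem cell markers, 13 had no peak within 2.5 kb of the gene in any library, among them Sox2, Nes, Fabp7 and Hes5. The others were Pax6, with at most 6.41% of its window covered, and Msi1. Smchd1 had no peak in any library, so these lists do not show its deletion. None of the markers of neurons, glia, blood, vessels or fibroblasts held a gained region. Mean cover of the neuronal markers was 39.5% and 44.2% for del/del and 39.9% and 46.4% for del/fl. In every library single neuronal genes ran from 0% at Map2 to 100% at Neurod1. Glial markers had means of 10.1% and 13.5% against 11.7% and 14.8%. Blood markers had 2.61% and 8.43% against 5.57% and 10.3%. Vascular markers had 1.08% and 2.84% against 0.902% and 3.54%, and fibroblast markers 0.0852% and 0.381% against 1.25% and 0%. Low cover was thus not particular to the stem cell markers.

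Only 18 genes had an annotated start site inside a gained region. Of 25748 autosomal genes with a known start site this was 0.0699%, against 0.109% for lost regions and 8.69% for all merged regions. A gained region joins the peaks of both del/del libraries, so a start site inside it need not lie in a peak of each. In the gene's span, del/del 2 had 0 kb at Upk3a, and del/del 1 had 0 kb at Gm4871 and Gm35801. Regions with a start site were 2.14% of the members, so their promoters do not stand for gained regions in general. Of the 6 promoters printed below, the first pair comes from the densest stretch of gained regions. The other 4 run from 1 to 14 CG, the highest number among these promoters. Those 4 belong to start sites inside the gene's span, not at its outer 5′ end. The gained region held 114 of 300 bases at Gmnc, 204 at Speer4d, 283 at Gm21149 and all at Cpne4, Oprm1 and Qrich2. All 6 are RefSeq sequences of GRCm38.p6 (the build of mm10), read 5′ to 3′ on the gene's strand from 250 bases before to 50 bases after the start site. Capitals mark each CG dinucleotide, and the coordinates are chr5:15618849-15619148 (plus strand) for Speer4d, chr5:15476487-15476786 (minus) for Gm21149, chr9:104587808-104588107 (plus) for Cpne4, chr10:6788320-6788619 (plus) for Oprm1, chr11:116454298-116454597 (minus) for Qrich2 and chr16:26968196-26968495 (minus) for Gmnc.
Speer4d: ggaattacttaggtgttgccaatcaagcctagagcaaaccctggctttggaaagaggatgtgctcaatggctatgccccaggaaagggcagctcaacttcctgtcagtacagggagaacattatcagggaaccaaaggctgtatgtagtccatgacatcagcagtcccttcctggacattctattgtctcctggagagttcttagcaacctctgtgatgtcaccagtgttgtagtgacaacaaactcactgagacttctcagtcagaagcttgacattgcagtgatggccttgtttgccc
Gm21149: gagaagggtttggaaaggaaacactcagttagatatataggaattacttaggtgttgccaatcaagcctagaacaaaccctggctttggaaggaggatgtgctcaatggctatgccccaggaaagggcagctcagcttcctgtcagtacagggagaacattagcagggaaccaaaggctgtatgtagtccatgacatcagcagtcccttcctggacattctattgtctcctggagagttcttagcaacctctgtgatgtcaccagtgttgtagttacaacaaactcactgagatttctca
Cpne4: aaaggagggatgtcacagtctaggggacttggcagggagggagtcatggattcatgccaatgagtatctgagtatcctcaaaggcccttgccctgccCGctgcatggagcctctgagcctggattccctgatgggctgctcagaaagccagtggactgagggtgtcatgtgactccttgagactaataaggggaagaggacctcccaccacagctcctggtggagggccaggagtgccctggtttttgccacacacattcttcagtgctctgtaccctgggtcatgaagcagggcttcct
Oprm1: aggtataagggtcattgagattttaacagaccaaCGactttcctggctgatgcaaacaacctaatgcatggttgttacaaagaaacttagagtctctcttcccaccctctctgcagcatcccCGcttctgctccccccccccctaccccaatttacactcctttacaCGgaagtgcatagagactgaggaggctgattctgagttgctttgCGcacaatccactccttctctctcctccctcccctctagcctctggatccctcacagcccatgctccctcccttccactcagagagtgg
Qrich2: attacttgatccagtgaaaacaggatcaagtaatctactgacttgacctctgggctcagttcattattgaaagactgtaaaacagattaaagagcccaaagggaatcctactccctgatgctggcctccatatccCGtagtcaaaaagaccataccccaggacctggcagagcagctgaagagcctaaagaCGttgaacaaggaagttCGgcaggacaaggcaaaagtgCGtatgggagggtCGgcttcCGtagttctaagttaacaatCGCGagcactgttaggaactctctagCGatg
Gmnc: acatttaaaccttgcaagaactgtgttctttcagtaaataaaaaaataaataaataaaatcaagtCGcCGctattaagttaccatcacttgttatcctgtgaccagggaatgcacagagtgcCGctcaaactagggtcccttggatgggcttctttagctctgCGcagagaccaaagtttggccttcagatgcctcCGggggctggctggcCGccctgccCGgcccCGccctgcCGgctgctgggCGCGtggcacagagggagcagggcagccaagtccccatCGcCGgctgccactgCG
The promoters of Speer4d and Gm21149 held 0 CG, that of Cpne4 1, that of Oprm1 4, that of Qrich2 9 and that of Gmnc 14. Over the 19 promoters of the 18 genes the median was 3 CG and 48.7% GC. All 31396 autosomal promoters of the same length had medians of 7 CG and 53.0% GC, and the 2057 whose start site lay in a region marked in all 4 libraries had 14 CG and 59%. A CpG ratio (observed over expected) of at least 0.6 was met by 1 of the 19, that of Gmnc, against 46.3% of those in regions of all 4 libraries and 36.4% of all. The promoters of lost regions had medians of 5 CG and 47.8% GC, and those of the mixed pairs of libraries had medians of 5 to 9.5 CG. The median CG number of the promoters at gained regions was thus the lowest of the pairings, though it rests on 19 promoters, and the difference was not tested.

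In the deposited lists the number of gained regions lay within the range of the other ways in which 2 of the 4 libraries can share a region. There were 1110 lost regions (2.38% of all autosomal regions). Regions in exactly del/del 1 and del/fl 1 numbered 314 (0.674%), in del/del 1 and del/fl 2 760 (1.63%), in del/del 2 and del/fl 1 771 (1.65%), and in del/del 2 and del/fl 2 1895 (4.07%). The 841 gained regions thus lay inside the range of the other 5 pairings, from 314 to 1895, and 3 of these were smaller. The largest pairing joined the lists with the most peaks, and the smallest joined the lists with the fewest. When each list was cut to the same 17102 autosomal peaks, the order changed. Gained regions then numbered 754 and lost ones 859, above the 590, 616, 622 and 628 of the 4 mixed pairings. With peaks of a −log10 q-value of at least 2 only, the mixed pair of del/del 1 and del/fl 1 was largest with 547, followed by 394 gained, 322 lost and 133 to 305 in the other pairings. With a −log10 q of at least 5 there were 30 gained and 69 lost regions, above the 25, 28, 9 and 11 of the mixed pairings. These cuts mostly gave other regions: 2 of the 30 and 105 of the 394 overlapped one of the 841. For lists of equal length it was 537 of the 754.

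**Figure D1:**
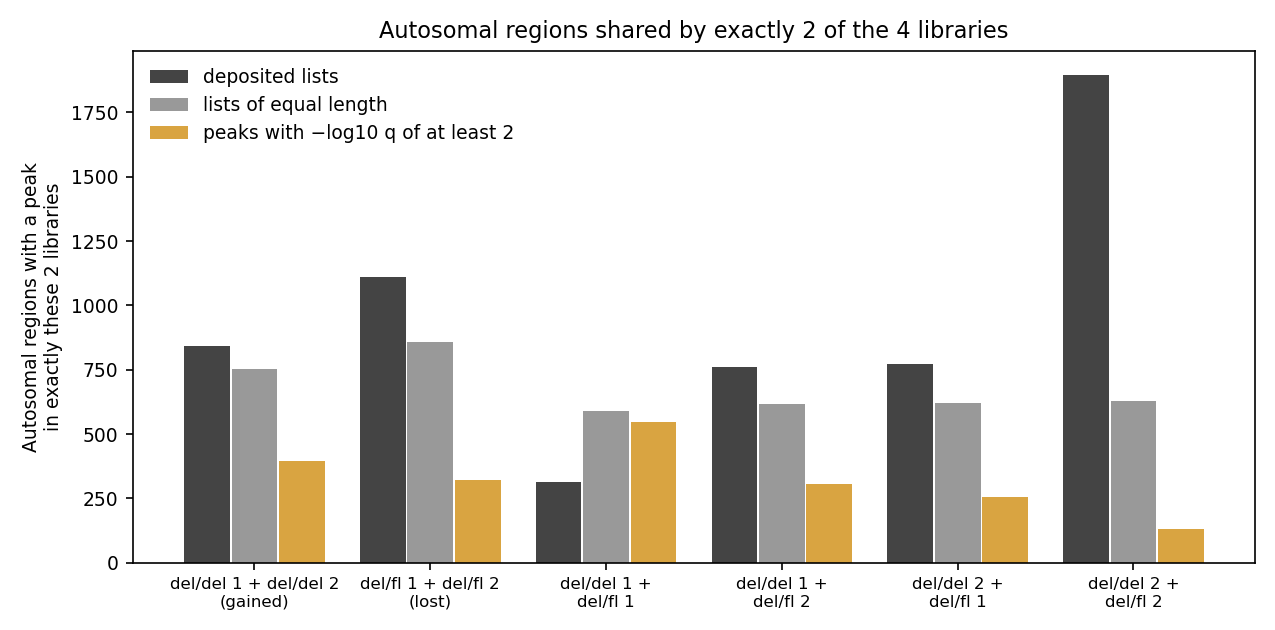
Number of autosomal regions (y axis) with a peak in exactly the 2 libraries named on the x axis, for the deposited lists, for lists cut to equal length and for peaks with −log10 q of at least 2. With the deposited lists the 841 gained regions lie inside the range of 314 to 1895 of the other pairings.

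Gained regions were short and weak, like the regions of every other pairing. Their lengths ran from 199 to 8917 bp with a median of 997 bp, and 88 were longer than 2 kb and 9 longer than 4 kb. Together they covered 0.974 Mb. The median length was 862 to 1122 bp in the other pairings and 4002 bp in regions of all 4 libraries. Fold enrichment is the authors' ratio of pileup over local background for each peak. Its median over gained regions was 3.13 in del/del 1 and 2.87 in del/del 2, against 3.63 and 3.39 for the same libraries in regions of all 4. In the mixed pairings the median fold was 3.09 in del/del 1 and 2.81 to 2.82 in del/del 2. The median −log10 q of gained regions was 1.92 and 1.5. Both del/del peaks reached a −log10 q of 2 in 105 of the 841 regions, 3 in 13 and 5 in 2.

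The peaks of the 2 del/del libraries often met over only part of a region. A median of 31.1% of a region lay in a peak of both, 248 regions were shared over at least 50% of their length, and 114 over less than 10%. A del/fl peak lay close by in most cases: within 1 kb of 229 regions, within 5 kb of 499 and within 10 kb of 581, or 69.1%. The median distance from a gained region to the next del/fl peak was 3105 bp, and 88 regions had none within 100 kb. Lost regions were closer to del/del peaks, with a median of 2275 bp and 77.5% within 10 kb.

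Members at the edge of the rule differed little from regions just outside it. In 63 members the weaker del/del peak had a −log10 q of 1.03, the lowest among members. One of these lay in Cpa6, a carboxypeptidase gene, with −log10 q of 2.97 in del/del 1 and 1.03 in del/del 2. Another lay in Lcn6, a lipocalin gene, with 1.51 and 1.03. The other 3 that the naming rule took by position lay near Gm41918, Gm35381 and Gm13264. Just outside, 1215 regions held peaks of both del/del libraries and of exactly 1 del/fl library, which was del/fl 2 in 904 and del/fl 1 in 311. That del/fl peak had a −log10 q under 2 in 942 of them (77.5%), and in 71 it had the lowest value, 1.02. Regions in Sned1 and in Lmx1a, a homeobox gene of the midbrain floor plate, were of this kind. At Lmx1a the values were 1.57 and 1.10 for del/del and 1.02 in del/fl 2. The remaining 3 were near Gm46242, Gm31101 and 4930590L20Rik.

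Cover was then measured in the 10 kb on each side of each gained region, outside the region itself. Peaks filled on average 8.93% of these flanks in del/del 1, 11.96% in del/del 2, 7.33% in del/fl 1 and 10.4% in del/fl 2. By group this was 10.4% ± 2.14 for del/del and 8.84% ± 2.14 for del/fl (SD, n = 2), and the libraries of the groups overlapped. The difference of 1.60 points was 0.678 points without the densest stretch on chromosome 5. Around lost regions the order was turned, with 6.92% and 10.4% for del/del against 8.72% and 12% for del/fl. Both flanks come from the same lists as the rule and are a description.

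**Figure D2:**
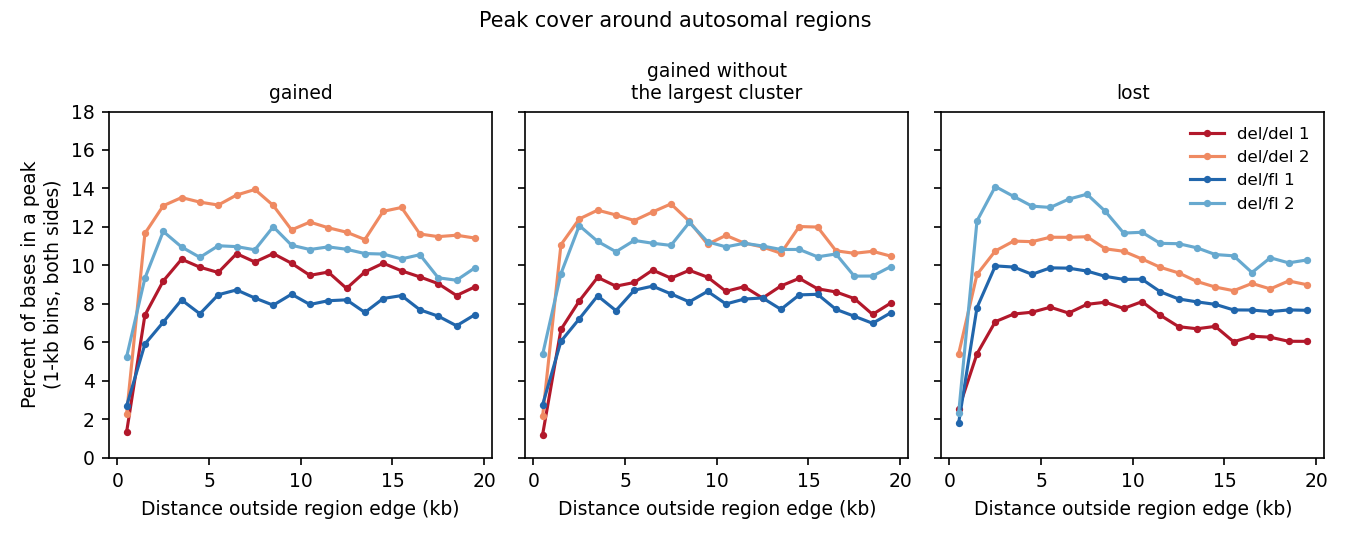
Percent of bases in a peak (y axis) in 1-kb bins by distance from the edge of the region (x axis, kb), for gained regions, gained regions without the densest stretch on chromosome 5, and lost regions, 1 line per library. In the bin from 7 to 8 kb the gained regions have 10.2% and 13.9% for del/del and 8.31% and 10.8% for del/fl; the nearest bin is low because adjoining peaks were merged into the region.

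A small group of gained regions had flanks that were more covered in del/del. In 46 regions (5.47%) the flanks were more covered in both del/del than in both del/fl libraries by at least 10 percentage points. The same count, with the pair's own libraries above the other 2, was 17 of 1110 lost regions (1.53%), 41 of 1895 for del/del 2 and del/fl 2 (2.16%), and 0, 0 and 1 in the remaining pairings. This threshold was chosen after the values were seen. Of the 46 regions, 19 came from 1 stretch on chromosome 5, and 27 of the 818 others (3.30%) remained without it. Counted as separate loci, with regions up to 100 kb apart joined, these were 20 of 693 gained loci (2.89%), 15 of 904 lost loci (1.66%) and 36 of 1393 loci of del/del 2 and del/fl 2 (2.58%). The order depends on the threshold. At 5 points the loci were 36 gained (5.19%), 51 lost (5.64%) and 140 of del/del 2 and del/fl 2 (10.1%), and at 20 points 9 (1.30%), 4 (0.442%) and 4 (0.287%). In 19 of the 46 regions both del/fl libraries had no peak at all in the flanks. Of these, 12 lay in the chromosome 5 stretch and 7 at 4 other loci, whereas no lost region and 2 regions of the mixed pairings had such flanks. The 4 loci were the stretches at Nmur2 and Syndig1, 1 on chromosome 16 at 8184775 to 8186016, 152890 bp from Gm29936, and 1 on chromosome 5 at 118892125 to 118893908, 48815 bp from Gm42015. This contrast depends on the threshold too. At 5 points, flanks bare in the other 2 libraries were found at 6 gained and 3 lost loci. They were also found at 11 loci of del/del 2 and del/fl 2 and 1 of del/del 2 and del/fl 1. At 20 points 1 gained locus remained and none of any other pairing.

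**Figure D3:**
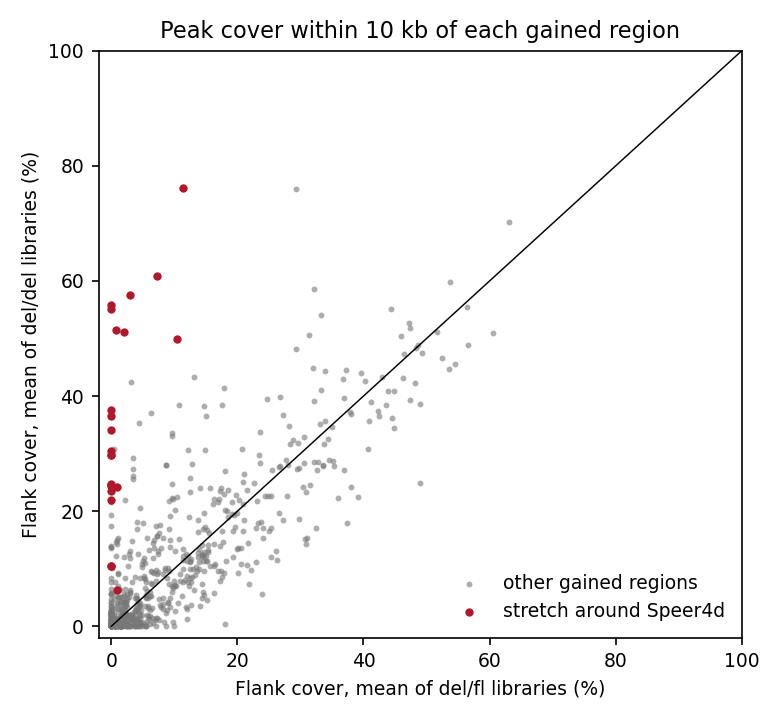
Percent of the 10 kb on each side of a gained region that lay in peaks, mean of the 2 del/fl libraries (x axis) against the mean of the 2 del/del libraries (y axis), 1 point per region. Most points lie near the line of equality, and regions of the stretch around Speer4d (red) lie above it.

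The densest stretch lay on chromosome 5 at 15471938 to 15662526 (mm10) and held 23 gained regions in 191 kb. It contains Speer4d, of a rodent gene family expressed in the testis, and the predicted genes Gm21083, Gm21149, Gm21190, Gm21847, Gm30417 and Gm30613. Peaks covered 43.0% of the stretch in del/del 1, 46.2% in del/del 2, 3.28% in del/fl 1 and 4.45% in del/fl 2. In number these were 46 and 37 peaks for del/del and 6 and 8 for del/fl. The libraries of the groups did not overlap, and the stretch was found through this same difference. Its 23 regions were 320 to 8917 bp long, with a fold enrichment of 2.57 to 3.53 in del/del 1 and 2.51 to 3.37 in del/del 2, and medians of 3.13 and 3.02. Over all members the medians were 3.13 and 2.87. The median −log10 q of the stretch was 2.05 and 1.95, against 1.92 and 1.5 over all members, and the median pileup 7.88 and 7.76 against 6.84 and 5.87. The longest of all gained regions, 15582550 to 15591466 in the lncRNA gene Gm30613, was filled to 86.0% by del/del 1 peaks and to 83.6% by del/del 2 peaks. Over the span of Gm30613, cover was 65.4% and 66.8% for del/del and 8.97% and 11.7% for del/fl. Speer4d was 39.3% and 51.3% covered in del/del, Gm21083 60.1% and 55.8%, and Gm21190 24.4% and 84.7%, each with 0% for del/fl. Gm21847 had 24.1% and 46.0% against 0%, and Gm30417 52.6% and 47.6% against 0% and 3.03%.

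Of 5 genes of this stretch with a promoter in the table, 4 shared promoter sequence with other genes. Of the 70-base windows of the Speer4d promoter printed above, 38.5% also occurred in the promoters of 6 other genes, and of those of Gm21149 62.8% in 11 others. The values were 67.5% for Gm21083 and 87.9% for Gm21190, and the promoters of Speer4d and Gm21083 were 90.7% identical. Gm30613, which holds the longest region, shared 0%, and its promoter was 42% to 45.3% identical to the other 4. Among all autosomal promoters 15.1% shared any such window with another gene. The tags were 69 to 75 bases long, so tags of these copies may not be placed with certainty, and how the authors treated tags with several matches is not given in the sources used here. Outside this stretch, shared windows were found in the promoters of Gm3238 (47.6%) and Gm4871 (28.1%) and in none of the other 15 promoters of gained regions.

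Other clusters were smaller. Joined at gaps of up to 100 kb, 606 gained regions stood alone, 122 stood in pairs, and 113 (13.4%) formed 26 clusters of 3 or more. The share in such clusters was 9.55% for lost regions, and 1.91% to 21.5% over all other pairings. In 18 of the 26 clusters both del/del libraries were more covered than both del/fl libraries, by at least 10 points in 8. Cluster cover, here and below, includes the gained regions, which the rule fills for del/del alone. It therefore leans towards del/del by the choice, and the same count was not made for the other pairings. Of the 26 clusters, 19 held a region marked in all 4 libraries. The largest cluster of any other pairing held 9 regions.

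Some groups of gained regions lay where del/fl had little or no cover. At Syndig1, a gene of synapse formation, 4 gained regions lay at 149981927 to 150026663 on chromosome 2. Cover between these ends was 16.2% and 18.4% for del/del and 0% in both del/fl libraries. Only the first region overlapped the gene, and the others lay 11636 to 20605 bp from it. A del/fl peak lay 3171 bp from the first. Over the whole span of Syndig1 cover was 3.99% and 5.37% for del/del and 2.01% and 2.61% for del/fl. A pair of gained regions, of 4201 and 4104 bp, overlapped Nmur2 without covering a listed start site. The gene encodes a receptor for neuromedin U, and the regions lay on chromosome 11 at 56021046 to 56025246 and 56026784 to 56030887. The first was covered 56.6% and 100% for del/del and the second 78.2% and 100%. In the 110 kb drawn around them, from 55971046 to 56080887, the del/del libraries had 5.97 and 8.71 kb in peaks and the del/fl libraries 0 kb. The same regions overlap the lncRNA gene LOC115485826. Cover of del/fl was not absent at Tspear on chromosome 10. There, within a group of keratin-associated protein genes, 3 regions at 77770960 to 77855319 had 27.8% and 30.2% cover for del/del against 2.84% and 11.4% for del/fl. On chromosome 5 at 101017617 to 101029095, 3 regions had 13.1% and 47.4% against 0% in both, and at 16843815 to 16857584 on chromosome 2 they had 50.2% and 48.8% against 2.59% and 7.31%. The opposite order was seen in Hpse2 on chromosome 19 at 43327330 to 43420359, with 34.8% and 40.1% for del/del and 44.8% and 50.5% for del/fl. These clusters of 3 were picked after their values were seen.

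**Figure D4:**
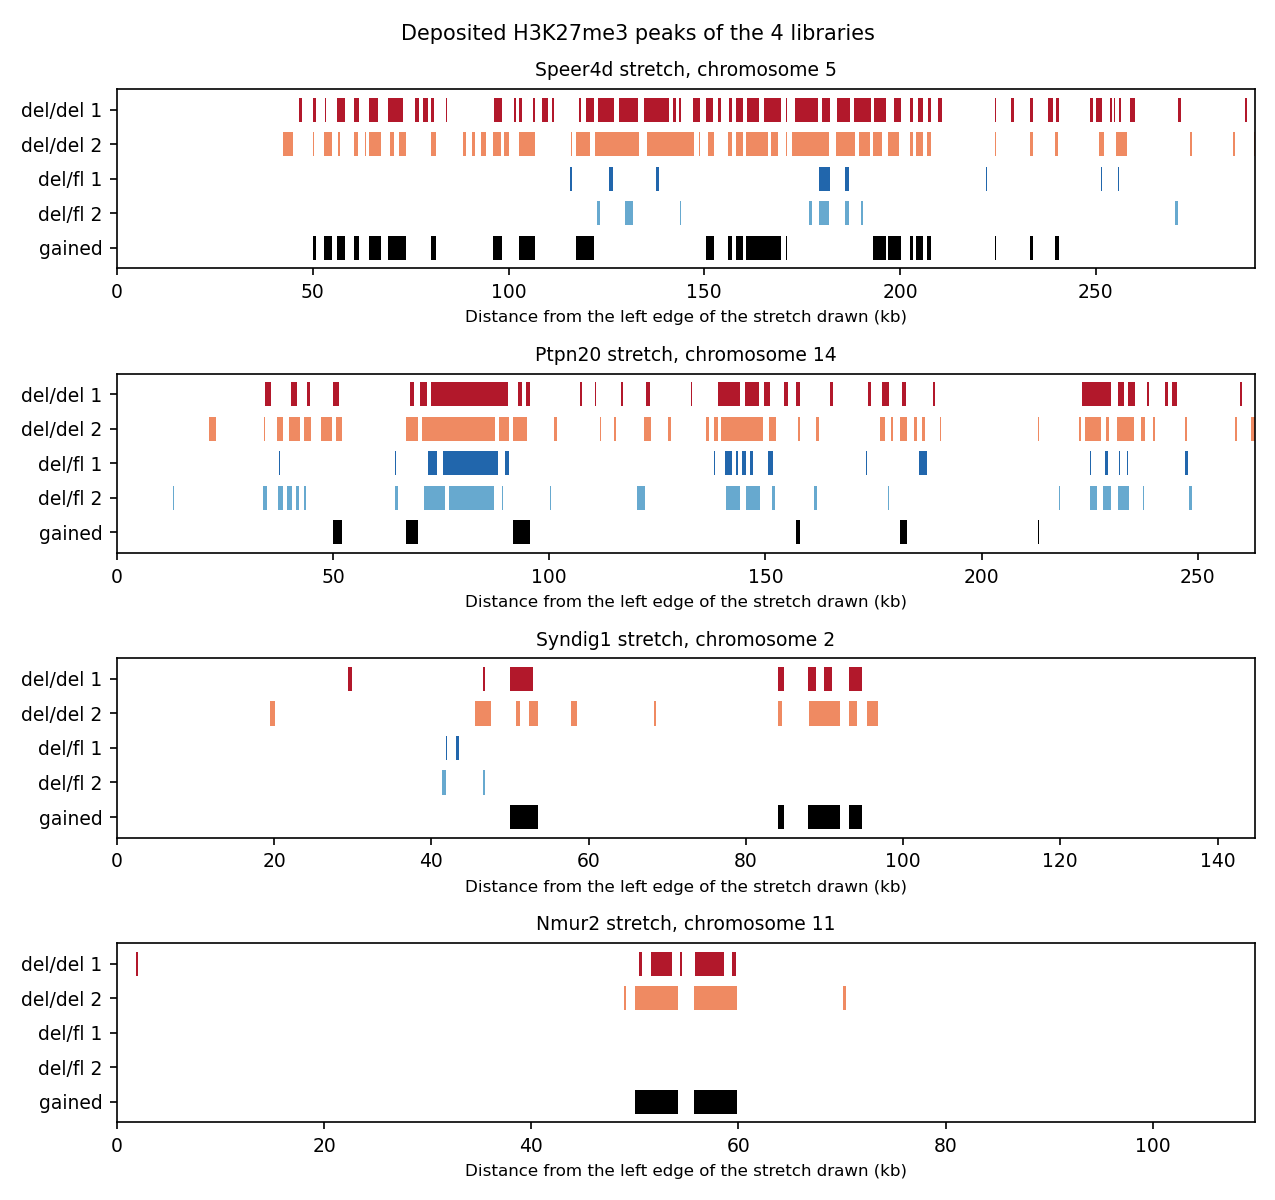
Deposited peaks of the 4 libraries and the gained regions (black) in 4 stretches, with distance from the left edge of the stretch in kb on the x axis and 1 row per library. Peaks of both del/del libraries fill much of the Speer4d stretch. From its first to its last gained region del/fl has 6 and 8 peaks, and a few more lie in the 50 kb margin drawn. Around Ptpn20 blocks present in all libraries lie between the gained regions, some of which adjoin a block while others lie apart. Around Nmur2 del/fl has no peak.

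Other clusters lay beside domains that del/fl also carried. On chromosome 14 at 33702954 to 33866163, beside the phosphatase gene Ptpn20, 6 gained regions lay among blocks shared by all libraries, with 25.8% and 30.1% cover for del/del and 13.9% and 16.5% for del/fl. The stretch at 37779240 to 37915097 on chromosome 5, which contains the homeobox gene Msx1, held 5, with 65.5% and 75% against 41% and 45.6%. At 178670783 to 178852506 on chromosome 2, at Gm35888, 5 regions came with 22.2% and 30.7% against 10.4% and 14.1%. In Asic2, an acid-sensing ion channel gene of neurons on chromosome 11, 4 regions lay at 81828767 to 81915333, where cover was 42.0% and 51.4% against 23.9% and 26.7%. At the keratin genes Krt2, Krt73 and Krt76 on chromosome 15 cover was 25.3% and 25.9% against 13.7% and 19.6%. In these 5 clusters the groups did not overlap, though this cover includes the gained regions themselves. The clusters of 4 at Gm12121 on chromosome 11, in St8sia2, a polysialic acid synthesis gene, on chromosome 7, in Jakmip1 on chromosome 5, at Gm32611 on chromosome 4 and near Gm35242 on chromosome 1 differed less. At St8sia2 cover was 36.5% and 43.5% for del/del and 32.6% and 36.6% for del/fl, and at Jakmip1 it was 17.4% and 22.6% against 16% and 20.9%, with overlapping groups in both. At Gm32611 it was 25% and 28% against 15.9% and 19.7%, without overlap.

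The second longest gained region stood alone. It lay at 66540478 to 66545658 on chromosome 10, measured 5181 bp and was 27966 bp from Gm40677. The del/del 1 peaks filled 78.4% of it and the del/del 2 peaks 92.4%. A region of 4691 bp at 109107411 to 109112101 on chromosome 12 lay 39169 bp from Begain, a gene at the edge of the Dlk1-Dio3 imprinted region. Its del/del 1 and del/del 2 peaks, 31.3% and 68.7% of its length, touched but did not overlap. A region of 3942 bp lay on chromosome 5 at 118886475 to 118890416, and one of 3859 bp in Asic2. Of the other 8 of the 12 longest, 4 lay in the Speer4d stretch, 2 at Nmur2, 1 at Syndig1 and 1 near Ptpn20.

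The 5 regions with the strongest gained peaks were all shorter than the median of 997 bp. The highest mean fold belonged to a region of 234 bp on chromosome 18 at 85698067 to 85698300, with 7.03 in del/del 1 and 5.2 in del/del 2. It lay 31243 bp from Gm32291, and the next del/fl peak was 875449 bp away. A region of 948 bp on chromosome 7 at 51334641 to 51335588 had 5.16 and 4.84, and a region of 240 bp on chromosome 3 at 18291418 to 18291657, 47528 bp from Cyp7b1, had 4.62 and 5. The other 2 of the 5 strongest, on chromosomes 13 and 3, lay 9029 bp from Gm29870 and 82334 bp from Gm20557. In these 5 regions flank cover was at most 4.18% in any library.

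Over the chromosomes, gained regions made up between 1.11% of merged regions on chromosome 19 and 2.89% on chromosome 5. They were fewer than lost regions on 17 of 19 autosomes and more numerous on chromosome 5 (91 against 70) and chromosome 14 (46 against 37). Without the Speer4d stretch, chromosome 5 held 68, or 2.17% of its regions. The smallest ratio of gained to lost regions was on chromosome 19, with 16 against 49. Density was 0.342 gained regions per Mb in all, from 0.188 on chromosome 18 to 0.6 on chromosome 5.

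**Figure D5:**
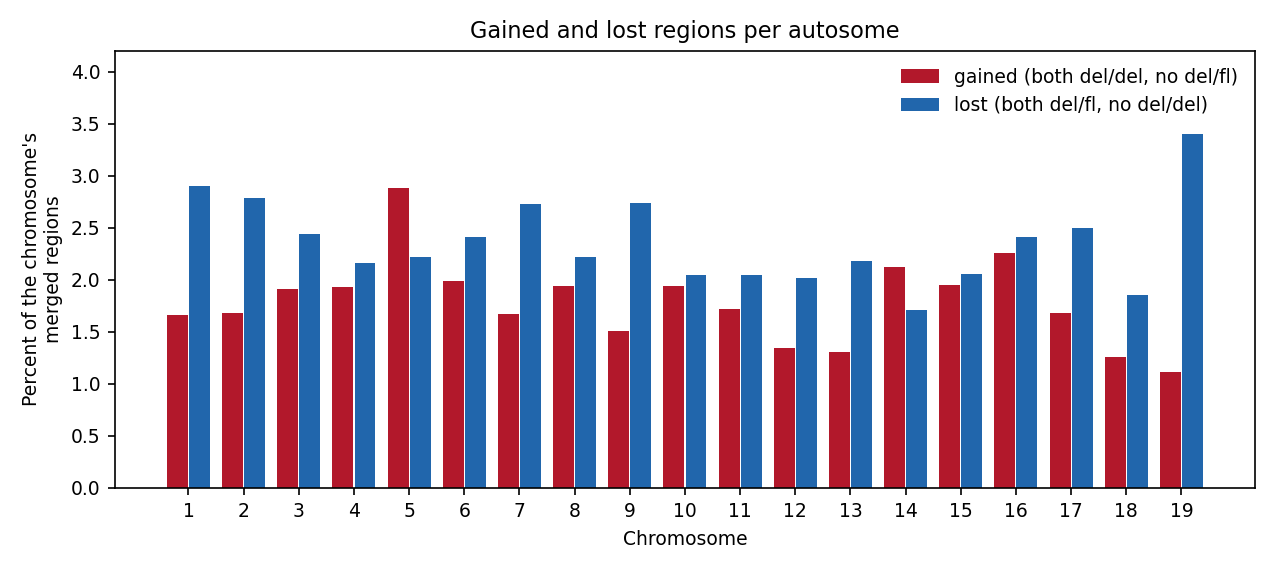
Gained (red) and lost (blue) regions as a percent of all merged regions of each autosome (y axis). Chromosomes 5 and 14 have more gained than lost regions, and chromosome 19 has the smallest share of gained and the largest share of lost regions.

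Most gained regions lay away from start sites. Of the 841, 363 (43.2%) overlapped an annotated gene, 18 (2.14%) held a start site, and 478 overlapped none. The share overlapping a gene was 41.7% to 48.2% in the other pairings and 63.7% in regions of all 4 libraries, and 21.4% of the latter held a start site. The median distance to a start site was 25.6 kb, longer than the 16.7 to 20.1 kb of the other pairings, and 26.1 kb without the Speer4d stretch. The gene table used here gives spans but no exons, so exonic and intronic positions were not separated.

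The overlapped genes numbered 335, of which 230 were protein-coding and 105 lncRNA genes. This was 1.01% of the 33073 autosomal genes, against 1.56% for lost regions and 25.1% for all merged regions. They were long genes, with a median span of 55.3 kb against 12.9 kb for all autosomal genes, and 36.7% of them exceeded 100 kb against 7.81% of all. Genes overlapped by lost regions had a median span of 57.4 kb, so length was common to both. Of the 335 genes, 41 also overlapped a lost region, which is 12.2% of the gained and 7.96% of the lost genes, and 164 (49.0%) also overlapped a region marked in all 4 libraries. Asic2 held 6 gained regions, the most of any protein-coding gene, with 7.29% and 10.3% of its span covered for del/del and 4.04% and 5.67% for del/fl. Rbfox1, a splicing regulator gene of neurons, held 4, with 1.94% and 2.36% against 1.26% and 1.69%. Thsd4 held 4 as well, with 21.7% and 28.6% against 22.8% and 26.1%, and Skap1, an adaptor gene of T cells, 2, with 58.3% and 66.5% against 62.4% and 66.2%. In Thsd4 and Skap1 the groups overlapped over the whole span although both held gained regions.

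At start sites the 18 genes comprised 12 protein-coding and 6 lncRNA genes. The start sites of Oprm1, Dlg2, Cpne4, Qrich2, Gmnc and S100a5 lay inside the gene's span, not at its outer 5′ end. For example, the span of Dlg2 on the plus strand begins at 90476188, and this start site lay at 91090786. Oprm1, the mu opioid receptor gene, had a region of 1741 bp, 70.2% covered in del/del 1 and 51.5% in del/del 2, with no peak of any library in its flanks. Dlg2, which encodes a postsynaptic scaffold protein, had one of 994 bp, 31.1% and 100% covered and also with empty flanks. Cpne4, a copine gene, had one of 2080 bp, 27.3% and 100% covered. Its flanks were 27.6% and 34.1% covered for del/del and 0% and 0.965% for del/fl. At Qrich2 the region measured 1637 bp, at Gm3238 1291 bp, at Gm4871 1246 bp and at Gmnc, a regulator of multiciliated cells, 1180 bp. Upk3a, a uroplakin gene of bladder epithelium, S100a5, a calcium-binding protein gene, and Sema4f, a semaphorin gene, had regions of 955, 901 and 770 bp. The start site itself lay in a peak of del/del 1 but not of del/del 2 at Upk3a. At Gm4871 it lay in a peak of del/del 2 but not of del/del 1. Speer4d and Gm21149 completed the protein-coding genes, with regions of 3201 and 1946 bp.

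Among lists of genes by function, gained regions touched few members. Span cover of a gene, here and above, includes the gained regions themselves, which the rule gives to del/del alone. Of 44 glutamate and GABA receptor genes 6 overlapped one (13.6%, against 1.01% of all autosomal genes), while 5 overlapped a lost region and 2 to 5 a region of the other pairings. The 6 were Grin1 and Grin2d, NMDA receptor subunits, Grik3 and Grik4, kainate receptor subunits, Grid1, a delta receptor, and Grm7, a metabotropic receptor. Any merged region overlapped 32 of the 44 genes, against 25.1% of all autosomal genes. Grin1 was 18.9% and 26.9% covered over its span for del/del and 23.7% and 20.9% for del/fl. Grin2d had 25.3% and 34.5% against 25.7% and 29.3%, and Grik3 13.5% and 19.1% against 13.6% and 15.3%. Grik4 had 2.80% and 4.49% against 3.46% and 7.20%. Grid1 and Grm7 span 763 and 922 kb and were less than 1% covered in every library, with at most 0.632% in Grid1 and 0.520% in Grm7. In Grin1, Grin2d, Grik3 and Grik4 the groups overlapped over the span.

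Of 104 developmental transcription factor genes, 5 overlapped a gained region, or 4.81% against 1.01% of all autosomal genes. A lost region overlapped 2, regions of the other pairings 2 to 7, and a region of all 4 libraries 99. Any merged region overlapped 101 of the 104, against 25.1% of all autosomal genes. Those with a gained region included Gata6, Pax3, Tbx5 and Wt1. Tbx5, a T-box gene of the heart and forelimb, was 55.4% and 58.9% covered for del/del and 38% and 44.7% for del/fl, with no overlap. Pax3, a neural crest and dorsal neural tube gene, had 80.4% and 88.7% against 77.2% and 82.5%, with overlapping groups. Gata6 had 52.2% and 53.1% against 53.9% and 56.2%, lower for del/del and without overlap. Wt1, a gene of kidney and gonad development, had 42.7% and 47.7% against 47% and 51.6%, and the groups overlapped. Of 46 signalling ligand genes 2 (4.35%) overlapped a gained region, Fgf10 and Wnt5b, against 0 to 3 in the other pairings. Any merged region overlapped 37 of the 46. Fgf10 had 2.43% and 4.63% cover against 2.34% and 4.50%, with overlapping groups, and Wnt5b 0.622% and 1.04% cover against 0% and 0.172%. In Wnt5b the 1.171 kb covered in del/del 2 equalled the gained length of 1171 bp.

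Of 324 solute carrier genes 8 overlapped a gained region (2.47%, against 1.01% of all autosomal genes), and 2 to 15 a region of the other pairings. Any merged region overlapped 130 of the 324, against 25.1% of all autosomal genes. Slc6a5, the neuronal glycine transporter gene, had 26.1% and 25.5% cover for del/del and 23.3% and 22.0% for del/fl. Slc9a4, a sodium-proton exchanger gene, had 0.384% and 2.08% against 0% in both. That cover was the gained region alone and restates the rule. Slc6a6, the taurine transporter gene, had 4.44% and 13.9% against 4.61% and 5.39%. Slc2a10, a glucose transporter family gene, had 2.28% and 4.99% against 0% and 1.31%, and its del/del cover also lay in the gained region alone. Slc6a6 had overlapping groups, as did Slc24a4, Slc37a1 and the other 2, Slc22a6 and Slc6a18. Of 63 imprinted genes 1 overlapped a gained region (1.59%). It was Cobl, an actin nucleator gene, with 12.9% and 11% cover against 7.27% and 11.3% and overlapping groups. Of 388 Zfp genes there were 2 (0.515%), Zfp821 and Zfp978, of 10 Speer genes Speer4d alone, and of 24 neural stem cell genes Msi1 alone (4.17%). Msi1, an RNA-binding protein gene, had 0.458% and 2.82% cover against 0% and 0.815%, also with overlapping groups. No gained region overlapped any of 39 Hox genes, 57 clustered protocadherin genes, 1100 olfactory receptor genes, 352 vomeronasal receptor genes, 91 potassium channel genes, 31 neuronal genes or 24 germ line and pluripotency genes. All 39 Hox genes held a region of all 4 libraries. Any merged region overlapped only 54 of the olfactory and 12 of the vomeronasal receptor genes. Of the protocadherin genes, 12 overlapped a lost region, namely Pcdha1 to Pcdha11 and Pcdhb1, with 0 to 12 over the other pairings. A region where gene spans overlap counts for each of those genes. Lists of other cell types, namely 14 astrocyte and oligodendrocyte, 15 endothelial and mural, 15 microglial and blood, and 15 fibroblast and mesenchymal genes, also had 0 members with a gained region. The other pairings touched up to 2 members of each of these 4 lists. As only 1.01% of all autosomal genes overlapped a gained region, 0 members in lists of 14 to 91 genes are not read as a difference.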

How the data were processed

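H3K27me3 ChIP-seq peak lists of 2 del/del and 2 del/fl libraries were used, with the 4 whole-cell extracts present only as the caller's controls. The submitters' processing notes name bcl2fastq, Bowtie 0.12.9 and the mm10 build. Each library's peaks were called with MACS2 2.1.0.20140616 in broad mode, per the file headers. The deposited values per peak are a pileup signal, a fold enrichment (the ratio of pileup to local background), and a p-value and q-value as −log10, per the file headers. Peaks of chromosomes 1 to 19 were merged where they overlapped or touched (Python 3.11.15, pandas 2.3.3, numpy 2.4.6). On simulated lists the merging found 200 of 200 gained and 200 of 200 lost regions. The peaks planted for a region there always overlapped and never met those of another region. This checks the counting alone, not how well the rule works on real lists.

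Gene spans came from RefSeq (GRCm38.p6, 33073 autosomal protein-coding and lncRNA genes). Start sites came from the RefSeq promoter table, which held 77.9% of these genes. Gene spans were not extended. Members, gene lists and settings were chosen with earlier results of these data known. The regions described one by one are the 12 longest, the clusters of 4 or more, the 5 with the highest fold, the edge cases by −log10 q, list members and genes with a start site inside, with a few others chosen after their values were seen. No test was run, because the rule uses the same contrast; 2 against 2 libraries allow no exact permutation p under 0.333. Counts of 70-base windows cover promoters only. The values of 1 list member are not reported here.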

Additional observations from a re-analysis of the deposited data

Results flagged for a closer look

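The lists also hold peaks on the Y chromosome, which the comparisons above do not use, although the lines are labelled female. Of 81 merged Y regions, 7 held peaks of both del/del libraries and of neither del/fl library, and 0 had the opposite pattern. The Y peaks numbered 23 and 63 for del/del, 6 and 12 for del/fl, covering 14.6 and 31.1 kb against 4 and 8.74 kb.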

How the results depend on the processing

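Peak presence depends on a threshold, and the set of gained regions changed with it. With peaks of −log10 q of at least 5, there were 30 gained and 69 lost regions, 0.296 Mb gained and 21 genes, and 2 of the 30 overlapped an original member. With −log10 q of at least 2 there were 394 gained and 322 lost regions and 192 genes, and 105 of the 394 overlapped a member. Lists of equal length gave 754, of which 537 did. Peaks of at least 500 bp gave 539 gained regions. Without regions near peaks of the other genotype (5 kb), 342 gained and 368 lost regions remained. Leaving out 1 library, which loosens the rule to the other 3, gave 1189 (without del/fl replicate 1) to 12441 (without del/del replicate 1) gained regions, 1563 to 13231 lost regions, 1.45 to 7.02 Mb gained and 472 to 3250 genes. Merging up to 3 kb, not joining touching peaks, other cluster gaps, wider gene spans, other flanks and, chosen after the data were seen, leaving out the Speer4d stretch left the counts of gained and lost regions, gained Mb, genes and clusters within 1.5 times, where each was recomputed. Without that stretch, however, the del/del minus del/fl flank difference was 0.678 points, against 1.60 with it, regions with flanks higher in del/del fell from 46 to 27, and those with bare del/fl flanks from 19 to 7. With a replicate block, added after the data were seen, flank cover was higher for del/del by 1.60 points in both numbers, and by 0.665 and 0.692 points without the stretch. The mean of 1.60 is the same by construction, and the labels do not say what a number shares. The region rule gives the same regions with or without pairing. Weak peaks limit all counts: both del/del peaks reached a −log10 q of 2 in 105 members.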
